A study of Rattus norvegicus with 15 samples.

Results

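The comparison described here sets 3 libraries from ligated rats given the whole Yuan-Hu Zhi Tong Prescription (CCI+YZP) against 3 libraries from ligated rats left without treatment (CCI), 6 of the 15 libraries in the series. The libraries were chosen by their titles, and genes were kept where at least 3 of these 6 libraries reached 1 CPM (counts scaled to a common library total), which left 14983 of 34202 rows. All rats were adult male Sprague-Dawley animals of 180 to 200 g. In both groups the left sciatic nerve had been tied loosely with ligatures at mid-thigh, the chronic constriction injury (CCI), and the cord segments L4-L6 of the injured side were taken on postoperative day 10. CCI+YZP rats received 10.8 g crude drug per kg on each of 5 days, from postoperative day 6 to day 10. Further groups of 3 libraries each are given beside the results. For Sham the nerve was uncovered without ligatures, and the labels list no day of tissue collection. YH and BZ are components of the prescription. CCI+YH rats received the YH component at 7.2 g per kg and CCI+BZ rats the BZ component at 3.6 g per kg. Both were given on the same 5 days as in CCI+YZP rats. Each ligated group held 7 rats, of which 3 were sequenced. The labels do not mention a vehicle for the CCI group, so dosing itself and the prescription cannot be told apart.

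Chronic constriction injury is a standard model of neuropathic pain: the partly compressed nerve keeps signalling to the dorsal horn of the lumbar cord, where sensory input is relayed and where neurons, astrocytes and microglia change their gene expression. Yuan-Hu Zhi Tong Prescription is a traditional Chinese analgesic made from Corydalis rhizome and Angelica dahurica root. Corydalis alkaloids such as tetrahydropalmatine are known as dopamine receptor antagonists with an analgesic action. Bulk cord RNA averages over all of its cells, so fewer cells of a type and less RNA per cell cannot be told apart.

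The counts are listed by Ensembl rat identifier, and 0 of these could be matched to a gene symbol in the reference table used here. Genes are therefore described by identifier, 2 that were higher and 2 that were lower, and their functions are not given. For the same reason neither the cord label nor any of the 44 lists of cell type, glial, immune and pain genes could be looked up by symbol.

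The 6 libraries held 15605935 to 22757104 counts. CCI-1, CCI-2 and CCI-3 lay together on the second principal component of log2 CPM, with scores of 9.0, 11.2 and 12.2. CCI+YZP-1 and CCI+YZP-3 lay together at the high end of the first component, at 26.2 and 23.8. CCI+YZP-2 was apart from both, at -13.2 on the first component, inside the CCI scores of -27.1 to -0.854, and at -32.2 on the second. Results are therefore given with and without it.

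**Figure D1:**
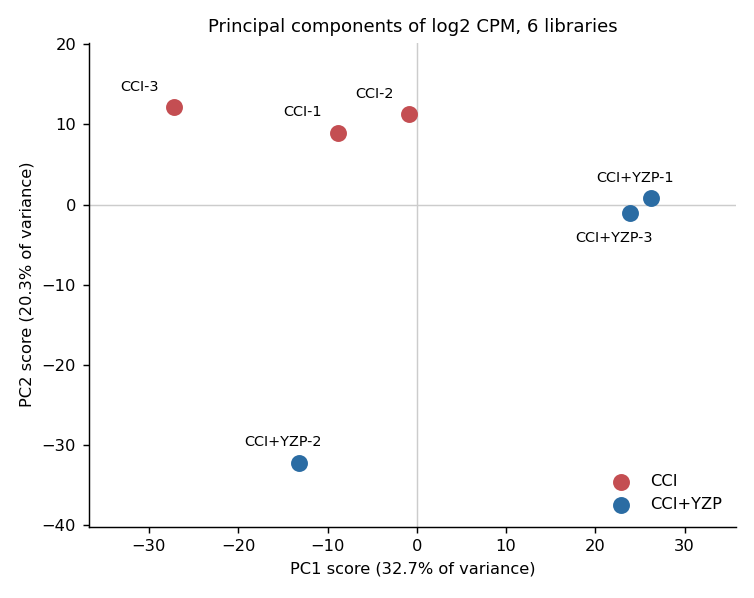
Scores of the 3 CCI and 3 CCI+YZP libraries on the first and second principal components of log2 CPM over 14983 genes, with the percent of variance on each axis; each point is 1 library. CCI+YZP-2 lies at -32.2 on the second component, away from the other libraries of its group at 0.827 and -1.10.

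The question asked of this comparison is what the prescription changed in the lumbar cord of rats with a ligated sciatic nerve. One gene, ENSRNOG00000010706, rose. It stood at 10.6, 11.5 and 12.0 CPM in CCI libraries 1 to 3 and at 22.4, 20.3 and 23.6 CPM in CCI+YZP libraries 1 to 3. The lowest treated library was well above the highest untreated one, and CCI+YZP-2 was close to the other treated libraries. The log2 fold change was 0.96 (SE 0.113, 95% interval 0.72 to 1.21), a 1.95-fold rise with an edgeR adjusted p of 0.0112. It was the 1 gene of 14983 that passed an adjusted p of 0.05, or 0.00667% of the genes tested.

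The level of ENSRNOG00000010706 in the cord of treated rats was also above that of Sham rats. Sham libraries held 10.6, 12.1 and 11.3 CPM, close to the CCI libraries (CCI minus Sham, log2 fold change -0.00017, 95% interval -0.24 to 0.24). CCI+YZP exceeded Sham by 0.96 on the log2 scale (SE 0.113, edgeR adjusted p = 0.00604), in a comparison that called 0.1% of genes. That call was lost without Sham-1 (adjusted p = 0.0540). CCI+YH libraries held 16.5, 13.4 and 13.8 CPM, above all CCI libraries and below all CCI+YZP libraries. CCI+BZ libraries held 11.3, 11.7 and 14.4 CPM and overlapped CCI. From lowest to highest the group means were 11.3 ± 0.717 in Sham, 11.3 ± 0.692 in CCI, 12.4 ± 1.67 in CCI+BZ, 14.6 ± 1.70 in CCI+YH and 22.1 ± 1.70 in CCI+YZP (SD, n = 3 each).

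The levels in Sham, CCI+YH and CCI+BZ had been planned as values with no test, and the 6 comparisons that involve them were tested after the data were seen, with p-values adjusted over genes and not over these comparisons. They reuse the CCI or CCI+YZP libraries, and the identifiers were picked by their p in CCI+YZP against CCI, so they give no independent support to it. Doses differed between treatments, and the values are set side by side. Against CCI, the log2 fold change of ENSRNOG00000010706 was 0.36 in CCI+YH (SE 0.113, edgeR adjusted p = 0.710) and 0.14 in CCI+BZ (SE 0.114, adjusted p = 0.836). Those comparisons called 0% of genes in edgeR and 0 in limma voom, with 828 and 1002 genes at an unadjusted p under 0.05 in edgeR and 13 and 21 called by DESeq2. The direct test between treatments gave 0.83 for CCI+YZP minus CCI+BZ (SE 0.113, adjusted p = 0.0208, where 0.02% of genes were called). That call was lost in 6 of 26 alternatives, among them the omission of any 1 CCI+YZP library, CCI+BZ-1 or CCI+BZ-2 (adjusted p 0.0551 to 0.228). For CCI+YZP minus CCI+YH it gave 0.60 (95% interval 0.36 to 0.84, adjusted p = 0.999). There edgeR and limma voom called 0 genes (0%), 521 had an unadjusted p under 0.05 in edgeR, and DESeq2 called 3, with an adjusted p of 0.0114 for this identifier.

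The call against CCI depended on single libraries other than CCI+YZP-2. Without CCI+YZP-2 the log2 fold change of ENSRNOG00000010706 was 1.03 (edgeR adjusted p = 0.0118). The call was lost without CCI-1 (adjusted p = 0.0788), CCI-2 (0.113) or CCI+YZP-3 (0.107), and in a fit of the 6 libraries alone (0.0774), where the log2 fold change stayed at 0.92, 0.98, 0.91 and 0.96 in that order. Over all alternatives the adjusted p ran from 3.86e-10 with DESeq2 to 0.113.

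ENSRNOG00000009565 had the next smallest p and did not pass the adjustment. It stood at 10.0, 9.14 and 5.42 CPM in CCI libraries 1 to 3 and at 45.6, 20.3 and 38.2 CPM in CCI+YZP libraries 1 to 3. All treated libraries lay above all untreated ones, and CCI+YZP-2 was the lowest of the treated. The log2 fold change was 2.07 (SE 0.310, 95% interval 1.41 to 2.74, edgeR adjusted p = 0.0881). Without CCI+YZP-2 it was 2.35 and passed, with an adjusted p of 0.0118, and it also passed with DESeq2 (1.24e-08), without a filter on low counts (0.0187) and in limma voom with quality weights (0.0281). The adjusted p ran from 1.24e-08 to 0.403 over all alternatives.

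Mean levels of ENSRNOG00000009565 in the other groups lay between those of CCI and CCI+YZP. Sham held 7.05, 12.5 and 11.8 CPM and overlapped CCI. CCI+YH held 23.6, 22.2 and 26.4 CPM, and CCI+BZ held 15.7, 14.1 and 22.9 CPM, so that every treated library of the 3 treatments was above every CCI and Sham library. CCI+YZP-2, at 20.3 CPM, lay below the 3 CCI+YH libraries and within the CCI+BZ range. Against CCI the log2 fold changes were 1.55 for CCI+YH (edgeR adjusted p = 0.489) and 1.09 for CCI+BZ (adjusted p = 0.558). With DESeq2 the CCI+YH value passed as well (adjusted p = 0.00076) and the CCI+BZ value did not (0.1002). The direct differences were 0.53 for CCI+YZP minus CCI+YH (95% interval -0.10 to 1.159) and 0.98 for CCI+YZP minus CCI+BZ (0.34 to 1.62, adjusted p = 0.783).

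On the lower side, 0 genes passed the adjustment in edgeR or limma voom, 11 passed in DESeq2, and 576 had an unadjusted p under 0.05 in edgeR. ENSRNOG00000043102 had the smallest p among them. CCI libraries 1 to 3 held 26.2, 27.5 and 26.6 CPM and CCI+YZP libraries 1 to 3 held 20.03, 17.6 and 20.4 CPM, with no overlap and with CCI+YZP-2 the lowest. The log2 fold change was -0.47 (SE 0.0798, 95% interval -0.64 to -0.30, edgeR adjusted p = 0.194). Without CCI+YZP-2 it was -0.40 (adjusted p = 0.302). DESeq2 gave an adjusted p of 0.00191, the lowest over the alternatives, which reached up to 0.628. Sham, at 26.5, 24.9 and 25.8 CPM, was close to CCI, and CCI+YH, at 21.5, 18.7 and 22.2 CPM, overlapped CCI+YZP. CCI+BZ, at 24.5, 24.1 and 22.5 CPM, lay between CCI and CCI+YZP without overlapping either.

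ENSRNOG00000013548 had the next smallest p among lower genes and the largest difference of the 4 identifiers. CCI libraries 1 to 3 held 66.3, 114 and 41.6 CPM, and CCI+YZP libraries 1 to 3 held 11.6, 7.11 and 6.35 CPM. The untreated rats differed widely among themselves, and all of them were above the treated rats. The log2 fold change was -3.16 (SE 0.546, 95% interval -4.34 to -1.99, edgeR adjusted p = 0.194), and the adjusted p ran from 0.000106 with DESeq2 to 0.926 without CCI+YZP-3. Without CCI+YZP-2 the log2 fold change was -3.06 (adjusted p = 0.302).

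This identifier also varied among rats that had received no drug after sham surgery. Sham libraries held 57.4, 43.9 and 14.5 CPM, and even the lowest was above the highest CCI+YZP library. CCI+YH libraries were lower than any other, at 4.43, 4.37 and 5.32 CPM, while CCI+BZ libraries, at 131, 74.2 and 39.4 CPM, spanned the CCI range. Against CCI the log2 fold change of CCI+YH was -3.98 (edgeR adjusted p = 0.144), and it passed with DESeq2 (adjusted p = 2.93e-08). The difference of ENSRNOG00000013548 was -3.30 for CCI+YZP minus CCI+BZ on the log2 scale (SE 0.548, edgeR adjusted p = 0.0874) and 0.82 for CCI+YZP minus CCI+YH (95% interval -0.52 to 2.16). The difference from CCI+BZ passed in 6 of 26 alternatives.

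**Figure D2:**
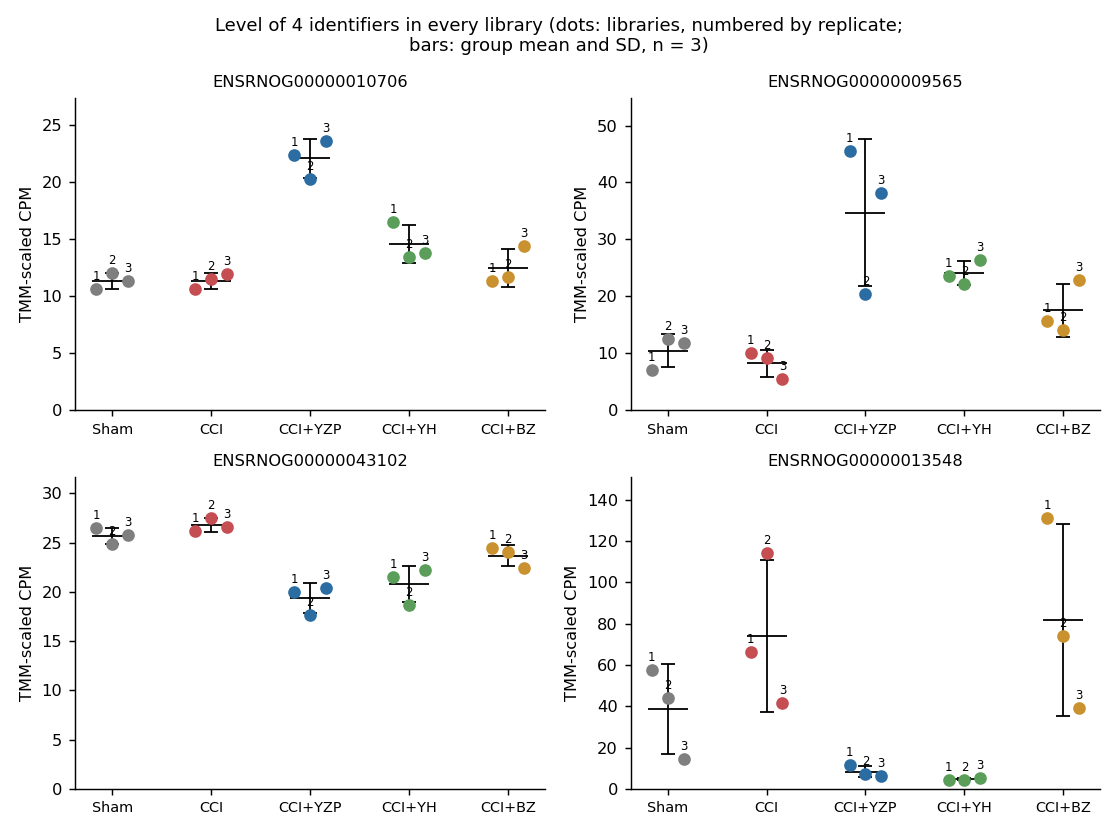
TMM-scaled CPM of 4 identifiers (linear axes from 0) in the 15 libraries; dots are libraries, numbered by replicate, and bars give the group mean and SD (n = 3). For ENSRNOG00000010706 the CCI+YZP libraries sit between 20.3 and 23.6 CPM, above the libraries of each other group; for ENSRNOG00000013548 the CCI+YZP libraries, at 6.35 to 11.6 CPM, sit near the CCI+YH libraries and below those of Sham, CCI and CCI+BZ.

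Over all genes tested the typical difference was small. The median absolute log2 fold change over 14983 genes was 0.092, and 170 genes differed by 2-fold or more, 57 of them higher and 113 lower in CCI+YZP. At an unadjusted p under 0.05, edgeR gave 469 genes higher (3.13%) and 576 lower (3.84%), 1045 in all (6.97%), where 5% of the genes tested would be 749. The balance turned with upper-quartile scaling, which gave 533 higher and 528 lower. In the reported fit the median log2 fold change was 0.29 among the 469 higher genes and -0.33 among the 576 lower genes. By level, the share at an unadjusted p under 0.05 in edgeR was 6.27% for genes under 5 CPM, 7.47% from 5 to 20 CPM and 7.53% from 20 to 100 CPM. At 100 CPM or more it was 5.43%. These shares lie near the 5% given above. Of 739 loci that the tables label only by a running number, 26 were higher and 28 lower at that p.

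DESeq2, which the submitters' processing notes list, called 20 genes (0.133%), 9 higher and 11 lower. Each of the 4 identifiers above was among them, as was the gene called by edgeR. In all 20 the 2 groups did not overlap, against 14.8% of all genes tested. Their absolute log2 fold changes ran from 0.19 to 3.14 with a median of 0.61. The 20 genes and the 4 identifiers were picked by p from the same counts, so neither match is independent support.

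Every CCI+YZP library lay above every CCI library in 1069 genes (7.13%) and below every CCI library in 1143 (7.63%), 14.8% of genes together. With 3 against 3, a share of about 0.1 of genes would separate fully with no difference between the groups. Most of these genes can therefore not be read as changed by the treatment. Among all 170 genes of 2-fold or more, out of 14983 tested, 57 were higher and 113 lower. Those without overlap were also mostly on the lower side. Of the 76 non-overlapping genes that differed by 2-fold or more, 17 were higher and 59 lower in CCI+YZP, and among those with a mean of 5 CPM or more 4 were higher and 30 lower. The split was the same with RLE scaling and 18 to 58 with upper-quartile scaling.

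One untreated library stood out in that split. CCI-3 was the highest of the 3 CCI libraries in 41 of the 59 lower genes, against 12 for CCI-1 and 6 for CCI-2. Among the treated libraries, CCI+YZP-2 was the highest in 36 of the 59, against 14 for CCI+YZP-1 and 9 for CCI+YZP-3. The 59 genes were picked by these same values, and the same count over all genes was not made. The median level of the 59 genes was 11.2 CPM in CCI-3, 7.48 in CCI-1, 6.00 in CCI-2 and 1.61 to 2.29 in the treated libraries. Without CCI-3 the split was 33 higher to 44 lower, and the number of genes at an unadjusted p under 0.05 fell from 1045 to 625 (49.3% of them lower, against 55.1% with it). Without CCI-1 the split of 2-fold, non-overlapping genes was 37 to 76, and 912 genes had an unadjusted p under 0.05, of which 49.5% were lower, so that the excess of lower genes at that p was also lost there. CCI-3 also had the lowest share of counts from the 3 most abundant genes among the 6 libraries, at 6.78%, against 7.55% and 7.53% in CCI-1 and CCI-2, and its part in the split was not tested. Without CCI-2 the split was 39 to 108.

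**Figure D3:**
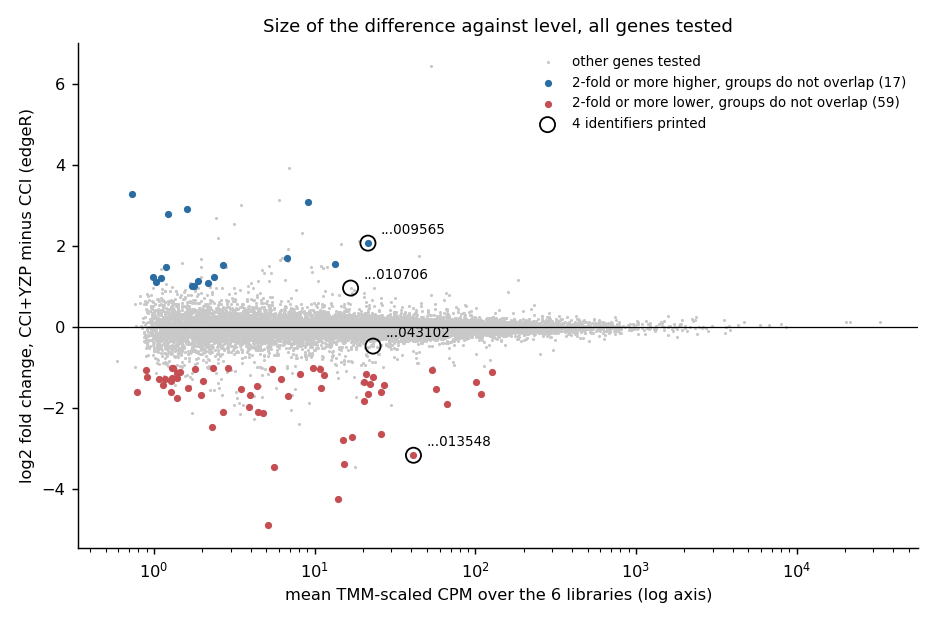
Log2 fold change of CCI+YZP minus CCI against the mean TMM-scaled CPM over the 6 libraries (log axis), 1 point per gene tested; coloured points differ by 2-fold or more with no overlap between groups, and circles mark the 4 identifiers by their last 6 digits. There are 17 coloured points above 0 and 59 below it, and the point at 6.45 is grey since the groups overlap there.

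The largest positive log2 fold change of all, 6.45 (SE 1.87, edgeR adjusted p = 0.565), came from 1 library. That gene stood at 310 CPM in CCI+YZP-2, at 1.02 and 1.32 CPM in CCI+YZP-1 and CCI+YZP-3, and at 0.525 to 1.83 CPM in the CCI libraries. The largest negative value, -4.89 (SE 1.69, adjusted p = 0.588), belonged to a gene at 19.99, 6.00 and 3.76 CPM in CCI libraries 1 to 3 and at 0.276 to 0.391 CPM in the treated libraries, with no overlap. Both were picked here for their size after their values were seen.

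The 3 treated libraries differed among themselves. CCI+YZP-1 and CCI+YZP-3 were both above all CCI libraries in 2336 genes and both below them in 2538. CCI+YZP-2 was on the same side in 45.8% and 45.0% of these genes, and on the opposite side of the CCI range in 479 and 453 genes. By comparison, CCI+YZP-1 sided with the other pair in 58.9% and 59.7% of genes, and CCI+YZP-3 in 63.8% and 69.6%. All 3 sided together in the same 1069 and 1143 genes each time, so these shares differ only by how many genes each pair held. The pair without CCI+YZP-1 held 1814 and 1915 genes, and the pair without CCI+YZP-3 held 1676 and 1643. The shares that would arise with no difference between the groups were not computed.

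Within its own group CCI+YZP-2 also stood further off than any other of the 6 libraries. Among 10030 genes with a mean of 10 CPM or more, it was over 1.5-fold away from the mean of the other 2 in 310 genes, 230 of them higher. The corresponding numbers were 164 for CCI+YZP-1, 139 for CCI+YZP-3 and 101 to 182 for the CCI libraries. Of the 230 genes higher in CCI+YZP-2, 106 were above all CCI libraries, 104 were within the CCI range and 20 were below it. In 172 of the 230 the mean of CCI+YZP-1 and CCI+YZP-3 lay below all CCI libraries. The 230 genes were picked for being higher in CCI+YZP-2 than that mean, so a low mean is partly built in. The matching counts were 27 of 60 genes higher in CCI+YZP-1 and 19 of 51 higher in CCI+YZP-3. The same count over all 10030 genes was not made.

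The sum of the 3 most abundant genes moved with this difference between libraries. It made up 7.99% and 8.56% of counts in CCI+YZP-1 and CCI+YZP-3 and 7.02% in CCI+YZP-2, against 6.78% to 7.55% in CCI. The group means, 7.86% ± 0.780 in CCI+YZP and 7.29% ± 0.441 in CCI (SD, n = 3 each), overlapped in spread (exact permutation test, two-sided, p = 0.4, where 0.1 is the smallest that 3 against 3 allows). With this share as a covariate, ENSRNOG00000010706 kept a log2 fold change of 0.93 (edgeR adjusted p = 0.0279). That of ENSRNOG00000009565 was 1.93, with the adjusted p going from 0.0881 to 0.138. Of the 1045 genes at an unadjusted p under 0.05 in edgeR, 794 stayed under it with the covariate.

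**Figure D4:**
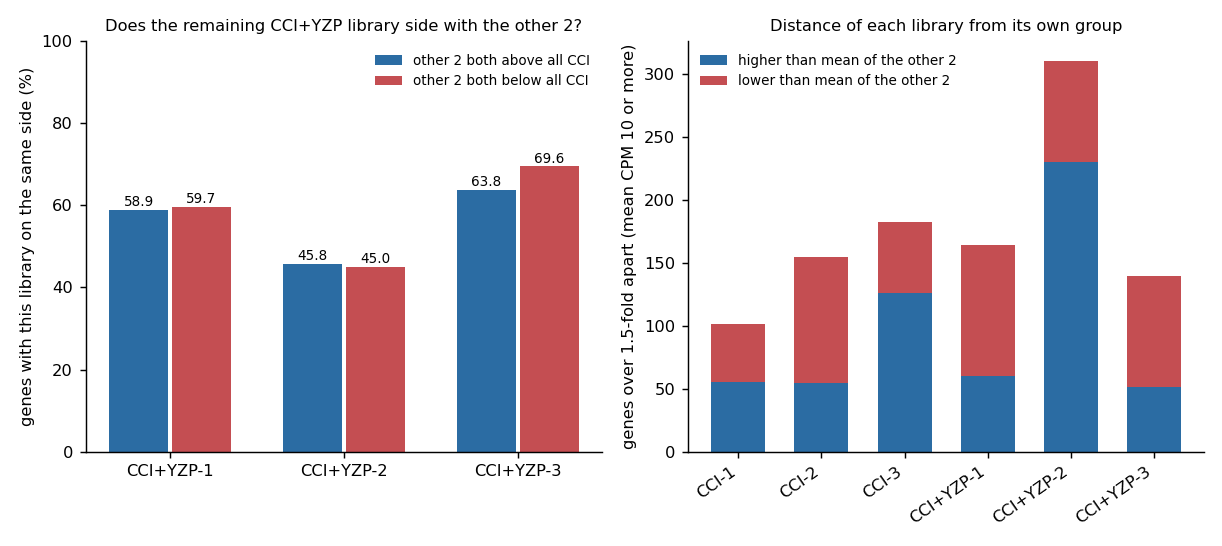
Left, for genes in which the other 2 CCI+YZP libraries are both above (blue) or both below (red) all CCI libraries, the percent in which the named library is on the same side; right, the number of genes over 1.5-fold from the mean of the other 2 libraries of the group, split by direction. CCI+YZP-2 has the lowest bars on the left, at 45.8% and 45.0%, and the tallest on the right, at 310 genes.

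Leaving out CCI+YZP-2 raised the number of called genes from 1 to 3, all higher in CCI+YZP, among them ENSRNOG00000010706 and ENSRNOG00000009565. The 2-fold, non-overlapping genes then numbered 35 higher and 157 lower. Part of that increase follows from the construction, since 2 treated libraries overlap the untreated ones less often than 3 do: leaving out CCI+YZP-1 gave 26 and 67, and leaving out CCI+YZP-3 gave 28 and 66. At an unadjusted p under 0.05 there were 1248 genes without CCI+YZP-2, 888 without CCI+YZP-1 and 752 without CCI+YZP-3. Of the 1045 genes of the full comparison, 705, 619 and 543 stayed under that p in the same order, all with the same sign.

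**Figure D5:**
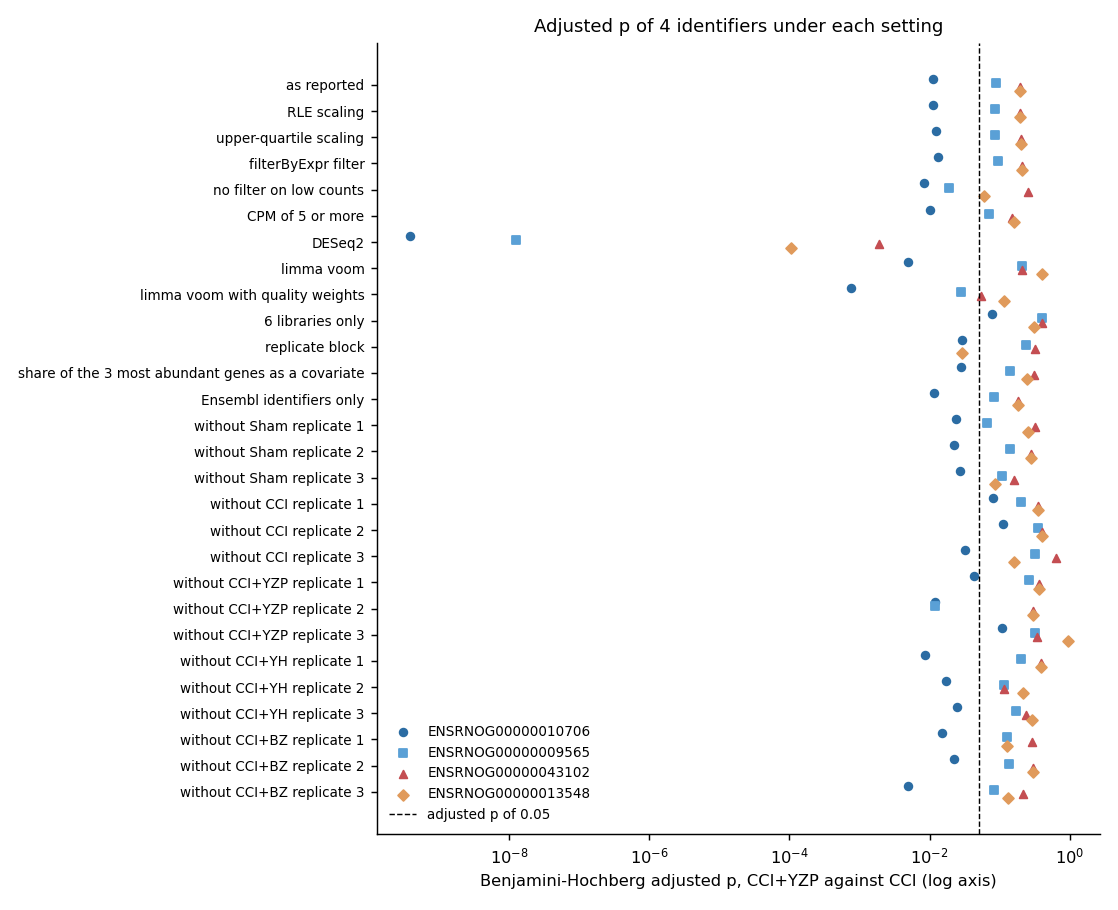
Benjamini-Hochberg adjusted p (log axis) of 4 identifiers in CCI+YZP against CCI, for the reported fit and each alternative in rows; the dashed line marks 0.05. ENSRNOG00000010706 lies left of the line except without CCI-1, CCI-2 or CCI+YZP-3 and in the fit of 6 libraries, and with DESeq2 each of the 4 lies left of it.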

How the data were processed

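Total RNA came from a Trizol extraction and was sequenced from NEBNext Ultra libraries, per the labels' protocols. Each library has 1 deposited table of unnormalized counts (32883 Ensembl rows and 1319 loci with a running number). Genome build rn4 and DESeq2 1.16.1 are listed in the submitters' processing notes. Which aligner, counter, annotation and strand setting were used is not stated in these sources, so overlapping or antisense genes and near-identical copies may share reads.

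Library totals ran from 15093246 to 22757104 over the 15 libraries. These were TMM-scaled in edgeR 4.0.16 (R 4.3.3), and a quasi-likelihood model (glmQLFit, glmQLFTest) with a coefficient per group was fitted to all 15 libraries (10 residual degrees of freedom), on the 14983 genes kept. Benjamini-Hochberg adjusted p under 0.05 was called. Values are TMM-scaled CPM; principal components used log2 CPM with a prior count of 2. Scripts were tested on simulated data. The 3 libraries of a group are taken as separate rats, and same-group pairs differed by far more than sampling noise (chi-square per gene 7.12 to 17.4). The edgeR p-values set each difference between groups against the spread within groups, estimated over all 15 libraries.

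The comparison, lists and rules were chosen with earlier results of these data known. The naming rule asked for symbols; since 0 matched, it allowed at most 2 higher and 2 lower identifiers; taking those of smallest p among non-overlapping Ensembl genes was decided after the data were seen. So were the tests involving Sham, CCI+YH and CCI+BZ, which had been planned as values with no test, and the counts of non-overlapping, 2-fold and library-specific genes. Alternatives were RLE and upper-quartile scaling, other filters, DESeq2 1.42.0, limma 3.58.1 voom with and without quality weights, 6 libraries only, a replicate block and each library left out. Also chosen after seeing the data were the covariate and the exclusion of loci with a running number.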

Additional observations from a re-analysis of the deposited data

Results flagged for a closer look

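The effect of treatment on ENSRNOG00000010706 differed between the prescription and BZ by the direct test. CCI+YZP exceeded CCI+BZ by 0.83 on the log2 scale (SE 0.113, edgeR adjusted p = 0.0208), with the 3 CCI+YZP libraries at 20.3 to 23.6 CPM above the 3 CCI+BZ libraries at 11.3 to 14.4 CPM. The doses differed, and this test was added after the data were seen, on an identifier picked for its difference between CCI+YZP and CCI. Of 14983 genes, 3 passed in this comparison. The call was lost in 6 of 26 alternatives: without any 1 of the CCI+YZP libraries, CCI+BZ replicate 1 or CCI+BZ replicate 2 (adjusted p 0.0551 to 0.228), and with the replicate block (0.0623). Groups of 3 libraries are too small for the check for single outlying samples.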

How the results depend on the processing

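The number of genes called in CCI+YZP against CCI was 1 in the reported fit. It was 20 with DESeq2, 2 in limma voom with quality weights, 2 without a filter on low counts, 2 at an adjusted p under 0.1, 0 with an added log2 fold change of at least 1 and 0 in the fit of 6 libraries. With 1 library left out it ranged from 0 (CCI-1, CCI-2 or CCI+YZP-3) to 3 (CCI+YZP-2), with 2 without CCI-3 or CCI+YZP-1. Genes at an unadjusted p under 0.05 numbered 1876 in limma voom with quality weights, and 625 (without CCI-3) to 1248 (without CCI+YZP-2) with 1 library left out, against 1045. The cause was not tested. Genes of 2-fold or more whose groups do not overlap numbered 151 with filterByExpr, 468 without a filter and 32 at 5 CPM or more, against 76.

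The replicate numbers of the titles did not pair the samples: deviations of same-numbered CCI and CCI+YZP libraries correlated at 0.0588, -0.178 and -0.0572 across genes, and no CCI+YZP library correlated best with its own number. With the replicate block 2 genes were called, ENSRNOG00000010706 (edgeR adjusted p = 0.0289) and ENSRNOG00000013548 (log2 fold change -3.12, adjusted p = 0.0289), and 932 had an unadjusted p under 0.05. The SE of ENSRNOG00000013548 was 0.384 with the block and 0.546 in the reported fit.

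All 4 identifiers kept their direction in CCI+YZP against CCI in 27 alternatives. They were picked by smallest p among genes whose groups do not overlap. Their direction was therefore largely fixed by the picking and gives no support. Sign changes arose only where the difference was near 0 or within the spread. For CCI minus Sham, ENSRNOG00000010706 went from -0.00017 to 0.052 in limma voom with quality weights, 0.092 with the covariate, 0.048 without Sham replicate 2 and 0.044 without CCI replicate 1 (-0.044 to 0.092 over all alternatives), and ENSRNOG00000009565 went from -0.34 to 0.0061 with the covariate. For CCI+BZ minus CCI, ENSRNOG00000013548 went from 0.14 to -0.14 without CCI replicate 3 and -0.39 without CCI+BZ replicate 1 (up to 0.60 without CCI replicate 2). Depth limits low genes most: the median SE of the log2 fold change was 0.27 under 5 CPM and 0.071 at 100 CPM or more.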
